A study of Mus musculus with 2 samples.

Results

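The imprinted domain around Kcnq1 and Cdkn1c was read as a stretch of chromosome 7, from 142850000 to 143600000 on the mm10 assembly. Every summit of the authors' peak lists inside it was taken and assigned to genes. The optimal list, kept by the authors after filtering on the irreproducible discovery rate (IDR), had 27 summits there, of 56470 in all. The list called on both libraries together, the pooled list, had 130 of 300000. The listed genes were 8: the potassium channel gene Kcnq1, its antisense RNA gene Kcnq1ot1, Cdkn1c, Phlda2, Slc22a18, Ascl2, Cd81 and Tssc4. The data were ChIP-seq for CTCF, a zinc-finger protein that binds DNA and helps to hold chromatin loops, from forebrain of mice of strain B6NCrl at age 0 days. There was 1 group of 2 libraries, replicate 1 and replicate 2, from forebrains pooled over several dissections, with the sex not recorded and no genetic change or treatment named. The labels call the libraries biological replicates, yet both cite the same biosample and donor, and what separates them may be technical only. There was no second condition, so no difference between groups could be tested. Peak lists hold no expression, so the tissue could not be checked against marker genes.

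In this domain the promoter of Kcnq1ot1 lies inside Kcnq1 and overlaps an imprinting control region that is methylated on the maternal copy. On the paternal copy the RNA is made, and in cis it keeps neighbouring genes silent. Cdkn1c and Phlda2, which restrain growth, are therefore expressed from the maternal copy, and some outer genes such as Ascl2 and Tssc4 are imprinted mainly in the placenta. CTCF binding at many sites is hindered by DNA methylation. The tissue came from 1 inbred strain and was read as peaks, so the parental copies were not separated. In bulk tissue, binding in fewer cells, weaker binding in each cell and binding to 1 of the 2 copies cannot be told apart.

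The sequences beneath the 3 sites at the Cdkn1c end of the domain's longest stretch without optimal-list sites are shown first. Each is 30 bases of mm10, read 5′ to 3′ on the strand that carries the match. Capitals mark the best match to the 14-base core of the CTCF motif. All 3 lie between Cdkn1c and Slc22a18.
Upstream of Cdkn1c, chr7:143464070-143464099, minus strand: caagtcggCCACCAGGGGGCAGcatgaagc
Farther upstream of Cdkn1c, chr7:143466488-143466517, minus strand: gtctctgaCCACCAGGGGGCAGaatgactc
Upstream of Slc22a18, chr7:143470150-143470179, minus strand: gaccttggCCAGCAGGCGGCGCccaggtct
The matches upstream of Cdkn1c had 0 mismatches and the same 14 bases. The match upstream of Slc22a18 had 1 mismatch.

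Most of Kcnq1 and the whole of Kcnq1ot1 and Cdkn1c lay in a stretch with no optimal-list site, while strong sites stood at both ends. The optimal list left 310 kb empty, between the strongest site of Kcnq1, in intron 2, and the summit at 143464087 upstream of Cdkn1c. That is 41.3% of the window. Of the 56441 distances between neighbouring optimal-list summits on the same chromosome, 2.05% were at least as long. This stretch was picked as the longest of the 26 distances in the window. The share is over single distances, so it does not tell how often a window holds one this long. Left of the empty stretch 17 sites lay in 304 kb (5.59 per 100 kb), and right of it 10 sites lay in 136 kb (7.36 per 100 kb). Contacts between the ends were not measured.

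**Figure D1:**
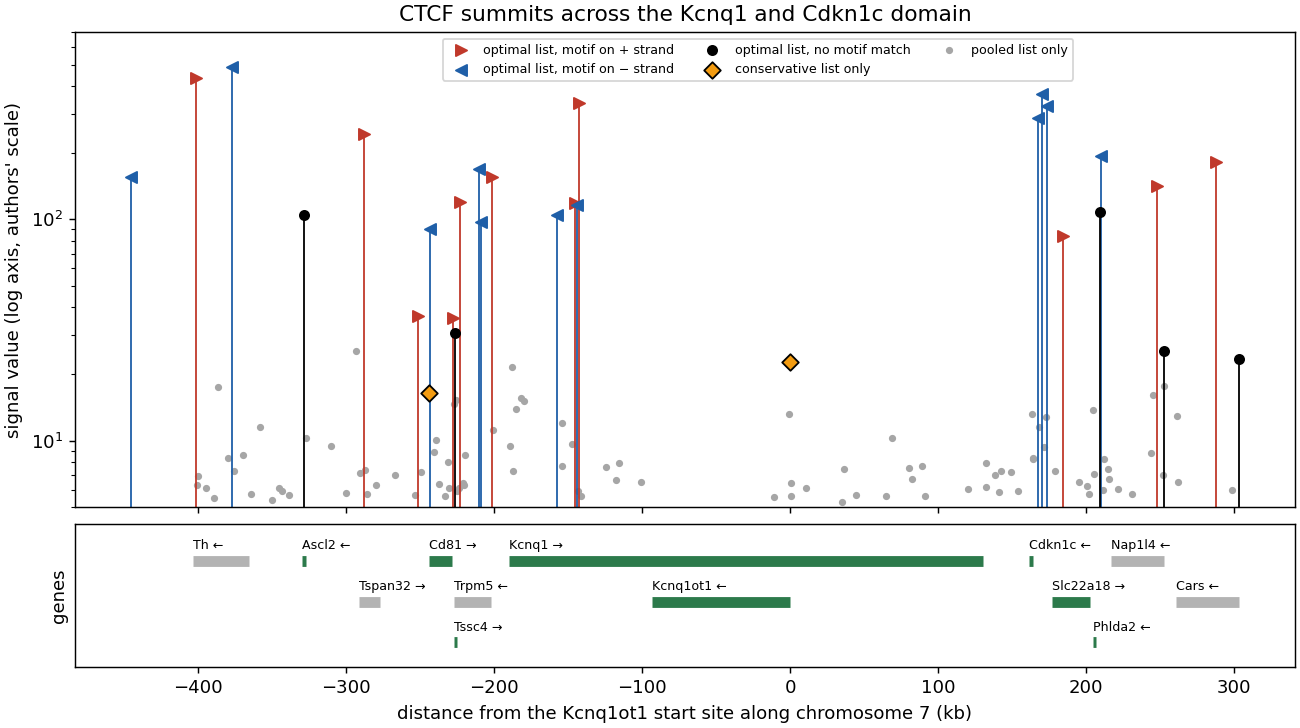
Signal value of each summit (log axis, the authors' scale) against its distance in kb from the Kcnq1ot1 start site, with gene spans underneath, the 8 listed genes in green and arrows for the direction of transcription. Triangles are optimal-list sites with a motif match, pointing right for the plus strand and left for the minus strand, black dots are optimal-list sites without a match, diamonds are the 2 sites found in the conservative list only, and grey dots are pooled-list summits outside both. The optimal list has 17 sites left of the 310 kb empty stretch and 10 right of it.

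The empty stretch was not without CTCF signal: a weak summit stood at the start of Kcnq1ot1. This summit, at 143296533 (peak 143296383 to 143296682), lay 16 bp downstream of the annotated start of the RNA, in its exon and in an intron of Kcnq1. Its pooled signal value was 22.6, against 23.4 for the weakest optimal-list site of the domain. Replicate 1 had a peak of 13.4 and replicate 2 a peak of 12, so both libraries held it at similar strength. It was absent from the optimal list but present in the conservative IDR list. The IDR settings of the lists were not given. Of the 54779 conservative-list peaks, 10.5% had no peak with the same coordinates in the optimal list. That share would include any that overlap an optimal-list peak with other bounds. The weak summit was also among the strongest peaks of each replicate when as many were taken as the optimal list holds. With the conservative list, or with either replicate alone, the longest empty stretch was 168 kb, and it ran from this site to the sites upstream of Cdkn1c. The stretch of 310 kb therefore depends on the list. A second summit 800 bp inside Kcnq1ot1, at 143295749, had 13.2 in the pooled list, 6.93 in replicate 1 and 5.91 in replicate 2. It was in neither IDR list.

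The start of Kcnq1ot1 is shown because that weak summit lies inside it. The 300 bases are the RefSeq promoter window (GRCm38.p6, from 250 bp before the start to 50 bp after it), and capitals mark CCAAT, the sequence bound by the factor NF-Y.
Kcnq1ot1, chr7:143296498-143296797, minus strand: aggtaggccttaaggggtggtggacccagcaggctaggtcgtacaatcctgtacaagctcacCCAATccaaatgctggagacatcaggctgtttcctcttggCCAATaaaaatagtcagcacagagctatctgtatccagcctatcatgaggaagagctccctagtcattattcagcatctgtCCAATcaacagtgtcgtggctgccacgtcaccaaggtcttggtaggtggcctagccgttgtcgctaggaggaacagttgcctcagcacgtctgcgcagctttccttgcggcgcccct
It held CCAAT 3 times on the strand of the RNA and 0 times on the other, with no overlaps. Of 32851 promoter windows of this length, 37.4% held CCAAT on either strand and 3.37% held it 3 or more times. The best match to the CTCF core in these bases had 4 mismatches, so no match at the threshold of 2 was present. The 300 bp around the weak summit contained 16 CpG dinucleotides, and those around the second summit 30. The median of the whole optimal list was 4. Among its sites within 1 kb of a start site, as both of these summits are, it was 18.0.

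Of the 31 pooled-list summits inside the empty stretch, 5 were found in both replicates, with summits within 100 bp. Those 5 included the 2 summits at Kcnq1ot1. The others had signal values of 7.46, 10.3 and 6.97, so the start of Kcnq1ot1 held the strongest signal of the stretch. In the whole window 20 of the 103 pooled-list summits outside the optimal list were found in both replicates (19.4%), and over all 243475 such summits 21.4% were. At a q-value below 0.05 there were 21 of the 103 in the window, against 18.9% over the genome, and 3 of the 31 in the empty stretch. The optimal list took up 27 of the 130 pooled-list summits of the window, against 18.8% over the genome. The shares of the window were within 3 percentage points of those over the genome, and in the empty stretch the share with such a q-value was lower, at 9.68% of 31 summits.

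Kcnq1, which encodes a voltage-gated potassium channel, carried 4 optimal-list sites, all in the first 2 introns of its 321 kb. The strongest lay in intron 2 with a signal value of 336, 184 in replicate 1 and 150 in replicate 2. Its neighbours in the same intron, at 143152501 and 143151363, had 116 and 119. These 3 sites spanned 2.64 kb. The remaining site, at 143138993 in intron 1, had 104, with 64.9 in replicate 1 and 36.3 in replicate 2. Its centred log2 ratio of replicate 1 to replicate 2 was 0.64, the highest of the 27 sites and above the SD of 0.50 over the whole optimal list. Among the 407 genes of like length, where the shorter of the pair had at least 80% of the length of the longer, the median was 6 optimal-list sites and 3.69% had 0.

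No optimal-list summit lay within 1 kb of a Kcnq1 start site, and the nearest was 12.3 kb away. Weak pooled-list summits were present there. A summit 882 bp downstream of a start site had 21.4, with overlapping peaks of 16.2 in replicate 1 and 7.14 in replicate 2. The replicates did not both have a summit within 100 bp of it. One 93 bp upstream had 9.41, with a peak of 6.85 in replicate 1 and no overlapping peak in replicate 2. With replicate 1 alone as the source of the list, Kcnq1 gained a site 765 bp from a start. Replicate 2 alone gave no site within 1 kb. The body of Kcnq1ot1, 93.1 kb long, had 0 optimal-list sites and 3 weak summits. Of 1649 genes of like length, 18.0% had 0 sites, and the median was 2.

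Cdkn1c, a cyclin-dependent kinase inhibitor that holds back cell division, had no optimal-list site in its 2.71 kb body, but a group of 3 strong sites began 3037 bp upstream. The 3 sites were 6.08 kb apart from first to last. The first (143463957 to 143464213) had a signal value of 286, 158 in replicate 1 and 128 in replicate 2. The next (143466375 to 143466649) had 370, 194 in replicate 1 and 174 in replicate 2. The third, 3569 bp upstream of Slc22a18 (143470033 to 143470288), had 325, 179 in replicate 1 and 147 in replicate 2. All 3 were above 90% of the optimal list, at the percentiles 90.8, 97.3 and 94.3. Their matches were all on the minus strand, the strand of Cdkn1c. The replicates differed little, with centred log2 ratios of 0.10, -0.05 and 0.08. At the start of Cdkn1c itself, 3 pooled-list summits within 1 kb had 13.2, 8.27 and 8.36. Both libraries had overlapping peaks there, 5.95 in replicate 1 and 5.83 in replicate 2 at the strongest, but none had summits within 100 bp in both.

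Slc22a18, a gene for a membrane transporter, had 1 site in its intron 5. That site (143480559 to 143480858) had a signal value of 84.3, 41.9 in replicate 1 and 41.7 in replicate 2. Its core matched with 0 mismatches on the plus strand, opposite to the group upstream of Cdkn1c. It was also the weakest of the 6 optimal-list sites with a full match. Phlda2, which limits placental growth, had no site in its body. A pair of sites lay 3513 and 4384 bp upstream of it. Their signal values were 108 and 193. The nearer had 61.8 in replicate 1 and 45.8 in replicate 2, and the farther 105 in replicate 1 and 87.1 in replicate 2. Both libraries thus held the farther site at the higher level. A pooled-list summit 684 bp inside Phlda2 had 7.03 and no peak in replicate 1. The strongest pooled-list summit assigned to Phlda2 outside the optimal list, 1257 bp from its start, had 13.7, with 8.10 in replicate 1 and 5.43 in replicate 2.

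Ascl2, Cd81 and Tssc4 were the listed genes with an optimal-list summit within 1 kb of a start site. That is 3 of 8, and 28.6% of all 35312 protein-coding and long noncoding genes had one. Ascl2, a transcription factor needed for the placenta, had its site in coding sequence (142968126 to 142968425), with 104, 64.5 in replicate 1 and 40.9 in replicate 2. The distance was 441 bp from the inner of its 2 annotated starts, at 142968717, and larger from the outer, at 142969264. Cd81, a tetraspanin of the cell surface, had its site 415 bp from its start, in an intron (143053004 to 143053303). The long noncoding gene R74862 starts 263 bp from that summit on the other strand. The site had 90.4, with 48.2 in replicate 1 and 41 in replicate 2. A weaker summit on the other side of the Cd81 start, at 143052438, had 16.4 and was the second site found in the conservative list only. Tssc4, which takes part in spliceosome assembly, had a pair of weak sites at 143068495 and 143070147. They had 35.9 and 30.7. The first had 22.7 in replicate 1 and 13.5 in replicate 2, and the other 15.8 in replicate 1 and 12 in replicate 2.

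Among the 7 protein-coding listed genes the count was the same 3, and 36.8% of all protein-coding genes had a site within 1 kb. With the conservative list, Kcnq1ot1 joined as the fourth. It was also the fourth with replicate 2 alone, and with replicate 1 alone Kcnq1ot1 and Kcnq1 made 5. Within 5 kb of a start, 6 of the 8 had an optimal-list summit, against 44.7% of all genes. The exceptions were Kcnq1 and Kcnq1ot1. All 8 had a pooled-list summit outside the optimal list within 1 kb, against 48.5% of all genes. For the genes not yet described in this way, the strongest such signal value was 10.3 at Ascl2, 15.2 at Tssc4 and 7.26 at Slc22a18, all below the weakest optimal-list site of the domain. A site within the gene body was present in 5 of the 8, against 41.8% of all genes.

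Of the other genes of the window, Th carried the 2 strongest sites. The next strongest, at 370, was the one upstream of Cdkn1c described above. Th, which encodes the rate-limiting enzyme of dopamine synthesis, had 2 intronic sites. The site at 142919434 lay in intron 1, between the 2 annotated Th starts (142900014 and 142931128). It had 489, ranked 128 in the optimal list, with 255 in replicate 1 and 235 in replicate 2. The other, at 142894861, had 435, with 244 in replicate 1 and 192 in replicate 2. Both were above 99% of the list, although the best match of the stronger one had 2 mismatches. Trpm5, a cation channel of taste cells, had a site 280 bp upstream of its start with 155 and 3 intronic sites of 97.4 to 169. A further intronic position of Trpm5 was the second Tssc4 site, since these genes overlap on opposite strands. In an intron of Tspan32, 182 bp from the start of the antisense gene Tspan32os, a site had 244. The site at the start of the histone chaperone gene Nap1l4 had 25.4, and the one at Cars, a cysteinyl-tRNA synthetase gene, 23.4. These were the weakest of the domain. In introns of both genes lay stronger sites. The Nap1l4 intron site had 76.8 in replicate 1 and 64.8 in replicate 2, and the Cars intron site 86.7 in replicate 1 and 94.7 in replicate 2. Of these 5 genes, all protein-coding, 3 had an optimal-list summit within 1 kb of a start, against 36.8% of all protein-coding genes. The 2 sites not yet named had 155 in the overlapping noncoding genes Gm6471 and Gm39117, and 36.4 in an intron of R74862. The nearest sites outside the window lay 50387 bp before it, with 184, and 12439 bp after it, with 28.8.

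**Figure D2:**
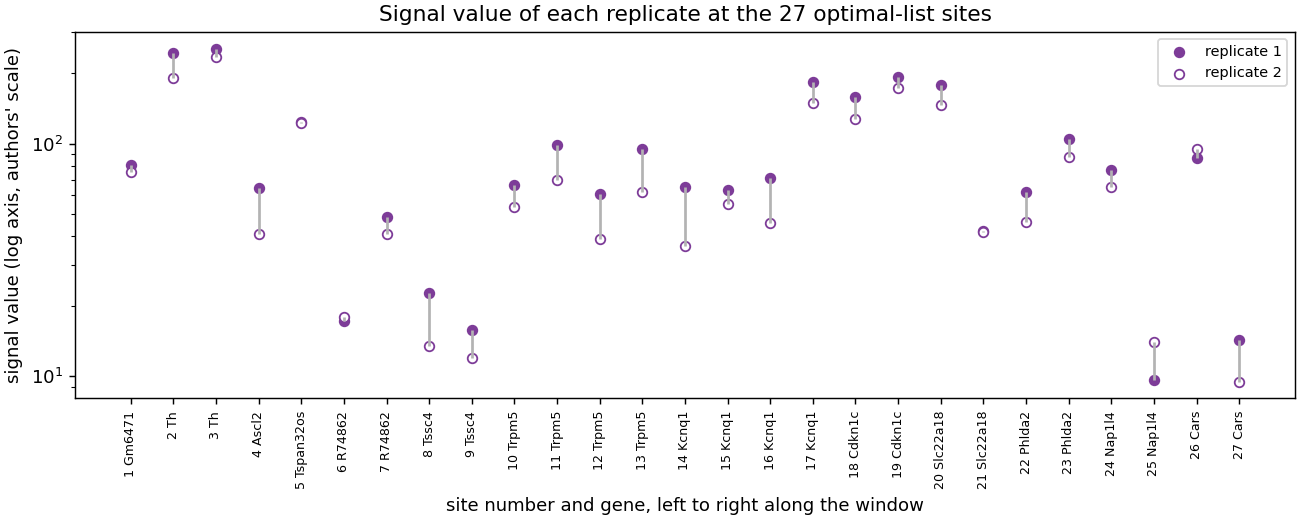
Signal value in replicate 1 (filled) and replicate 2 (open) at each of the 27 optimal-list sites, in order along the window, with the gene each was assigned to (log axis, the authors' scale, set by each list). Values run from 9.62 to 255 in replicate 1 and from 9.49 to 235 in replicate 2, and the high and low sites are mostly the same in both.

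The replicates held the same sites of the domain. Each of the 27 had a summit within 100 bp in both libraries. Signal values had a median of 71.4 in replicate 1 and 55.0 in replicate 2. The scale of each list was the peak caller's own, so the log2 ratio was centred on its median over the whole optimal list, 0.20. The centred ratios of the 27 sites ran from -0.74 to 0.64 with an SD of 0.30. Over all 56235 sites with a peak in both libraries the SD was 0.50, and it was 0.26 among sites above the median signal value of the list and 0.66 among those below it. Of the 27 sites of the domain, 22 were above that median. Only 3 sites passed the SD of 0.50: the Nap1l4 start, the upstream Tssc4 site and the Kcnq1 intron 1 site. The Nap1l4 site had 9.62 in replicate 1 and 14 in replicate 2, and was the 1 optimal-list site of the domain that the conservative list did not hold. Across the 27 sites Spearman's rho between the libraries was 0.956 and Pearson's r of the log2 values 0.971. This correlation is across sites of 2 libraries that cite the same biosample, on a list chosen for reproducibility in them.

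As a whole the domain was well supplied with strong sites. Its density was 3.60 summits per 100 kb, with a 95% interval of 2.37 to 5.24 by the exact Poisson method, and chromosome 7 as a whole had 2.68 and all placed chromosomes 2.13. The value of chromosome 7 lies inside the interval of the domain and that of all chromosomes below it. The intervals given cover counting error only. The median signal value was 120, against 64.3 in the whole list, and the median site ranked at the percentile 66.9. Of the 27 sites, 26 were also in the conservative list with the same coordinates, as were 86.8% of the optimal list. The window was richer in G and C (47.8% against 41.7% over the genome) and lower in masked repeats (19.7% against 36.4%). The empty stretch had 46.7% G and C and 18.0% repeats, close to the rest of the window. Whether base composition has a part in the density was not tested.

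The CTCF core was found within 50 bp of the summit, with at most 2 mismatches on either strand, at 22 of the 27 sites (81.5%, Wilson 95% interval 63.3 to 91.8%). The share over the whole optimal list was 67.2%, which lies inside that interval. There were 6 sites with 0 mismatches, 6 with 1 and 10 with 2. Over the whole list 9.46% of sites had 0 mismatches, 27.1% had 1 and 30.7% had 2. Summit and match centre were 4.50 bp apart at the median. Sites with a match had a median signal value of 155, and the 5 without one had 30.7. In the whole list these medians were 92.1 and 38.3. The 5 sites without a match were at the starts of Ascl2, Tssc4, Nap1l4 and Cars, and at the nearer site upstream of Phlda2. Matches were split evenly between the strands, 11 on each, as over the whole list, where 50% were on the plus strand.

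**Figure D3:**
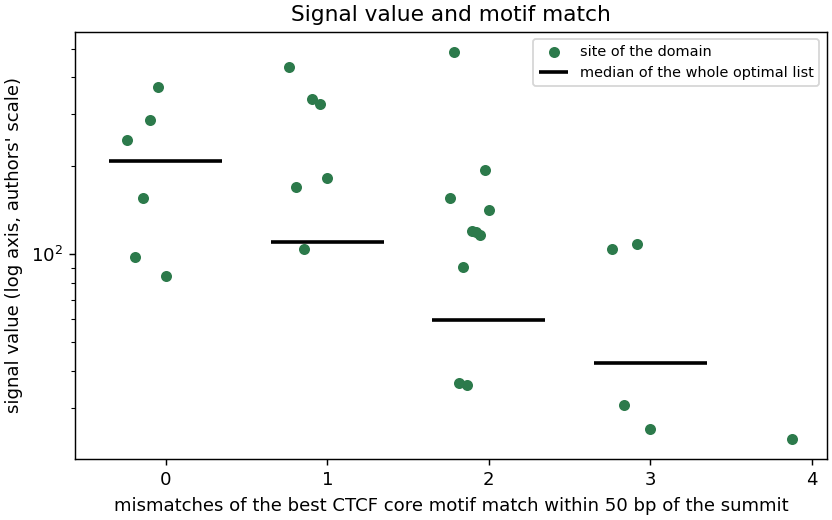
Signal value (log axis, the authors' scale) of the 27 sites against the number of mismatches of the best CTCF core match within 50 bp of the summit. Points are sites of the domain, spread sideways for clarity, and bars are medians of the whole optimal list (207, 110, 59.8 and 42.7 for 0 to 3 mismatches). All 5 sites with over 2 mismatches lie at or under 108.

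Site strength did not fall steadily with each further mismatch within the domain. The median signal value was 200 at 0 mismatches, 253 at 1, 119 at 2 and 67.2 at 3. The 6 full matches ranged from 84.3 to 370. A seventh full match of the window, in an intron of Tspan32os, lay under a pooled-list summit of 25.5 that neither IDR list held. It is printed with 2 full matches that had strong or moderate sites, capitals again marking the core.
Tspan32os intron, chr7:143002855-143002884, minus strand: gctcattcCCAGTAGAGGGCAGtgctggct
Near the Tspan32os start, chr7:143008205-143008234, plus strand: aacatcggCCACCAGGGGGCACcaaggtca
Slc22a18 intron, chr7:143480692-143480721, plus strand: agggagttCCACCAGGGGGCGCtacagtga
The first had 16.9 in replicate 1 and 6.41 in replicate 2, with 1 CpG in the 300 bp around its summit. The site near the Tspan32os start had 124 in replicate 1 and 122 in replicate 2. The Slc22a18 site, given above, lay between them. A CpG stood inside the core at 6 of the 22 matched sites (33.8% of all matched sites of the list), among them the one in the Slc22a18 intron and the one upstream of that gene.

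Sites at starts of genes were weaker than the rest of the domain and richer in CpG. Of the 27 summits, 8 lay within 1 kb of a start site of any gene (29.6%, against 18.7% of the whole list). They had a median signal value of 63.1 and a median of 16.5 CpG in 300 bp. The other 19 had 155 and 3. A motif match was present at 4 of the 8 and at 18 of the 19. The whole list had the same order: 39.5% of sites near a start and 73.6% of the others had a match, with median signal values of 50.4 near a start and 68.7 elsewhere. The site at Ascl2 had 40 CpG, the most of the domain, and that at the Nap1l4 start 35. The site near the Tspan32os start and the one at Trpm5 were the exceptions among the 8, with signal values of 244 and 155, full matches, and 7 and 1 CpG. DNA methylation was not measured.

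**Figure D4:**
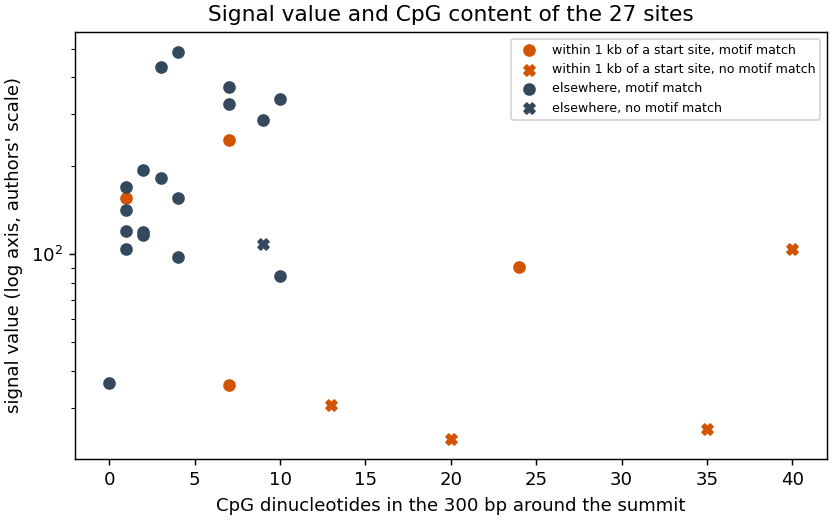
Signal value (log axis, the authors' scale) of the 27 optimal-list sites against the number of CpG dinucleotides in the 300 bp around the summit. Orange points lie within 1 kb of a start site and dark points elsewhere, circles have a motif match and crosses have none. The 19 sites away from start sites have at most 10 CpG.

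Of the 27 sites, 4 had their summit in soft-masked repeat sequence (17.8% of the whole list did). Their bases resembled each other beyond the core, and they are shown for that reason. Capitals mark the best match to the core. At the nearer site upstream of Phlda2 it had 3 mismatches, so that site does not count as matched.
R74862 intron, chr7:143044998-143045027, plus strand: tgtcaaggCCAGAAGAGGGCATtagatccc
Upstream of Phlda2, chr7:143506041-143506070, minus strand: cgaggaggCCGGAAGAGGGTGCtagatctc
Farther upstream of Phlda2, chr7:143506905-143506934, minus strand: tatggaggCCAGAAGAGGGCATccaatccc
Nap1l4 intron, chr7:143544549-143544578, plus strand: caaagaggCCAGAGGAGGGCACtagatcct
The 6 pairs of these had 19 to 24 of the 30 bases the same, with a median of 21.5. The 253 pairs of the other 23 sites had a median of 13.0 and a highest of 25. In the 16 bases outside the core the medians were 10 and 4. In mice, SINE repeats of the B2 family are known to carry CTCF motifs. The masking used here does not name the repeat family, so whether these 4 belong to it was not tested. Their signal values were 36.4, 108, 193 and 141, which includes both sites upstream of Phlda2.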

How the data were processed

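CTCF ChIP-seq peak lists of 2 libraries of 1 group were analysed. Per the labels and the notes deposited with the files, the lists are peaks on mm10 for each replicate, for both pooled, and after IDR filtering (optimal, conservative). A possible control experiment named in the labels was not used here. Read depth, aligner and peak caller were not given in the sources used here. The authors' signal value per peak has no stated scale, so it was used to rank and describe peaks within a list. The deposited q-values are −log10 values. A score in the authors' IDR lists has a top value of 1000, reached by 77.1% of the optimal list. The summit is the start plus the deposited offset.

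Each replicate and the pooled list hold 300000 peaks, so the weakest are set by list length. A replicate's value at a site was that of its strongest overlapping peak. Genes were GENCODE M21 basic protein-coding and long noncoding models, with start sites at transcript 5′ ends. Sequence was GRCm38.p6, and repeats its soft-masked bases. The promoter window came from RefSeq, where 6 of the 8 listed genes matched. The sequence of 1 site in Kcnq1 is not reported here. Only chromosomes 1 to 19, X and Y were used. A summit belonged to the gene with a start within 1 kb, else to the gene holding it, else to the nearest start. All listed genes, the other 5 genes of the window (Th, Tspan32, Trpm5, Nap1l4, Cars) and every optimal-list site were named. Of pooled-list summits, those named were the strongest per listed gene, those near listed starts, and those in both replicates above the weakest optimal-list site. Others were named after their values were seen, as were the repeat sites, the promoter sequence and the longest empty stretch. The members and lists were chosen with earlier results of these data known.

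Tools were samtools 1.23.1, matplotlib 3.10.9, pysam 0.24.0, scipy 1.17.1, pandas 2.3.3 and numpy 2.4.6 under Python 3.11.15. The motif scan was tested on simulated data: it found 100% of 2000 planted matches, and 1.75% of 2000 random windows held a match. The simulated bases were equally frequent, so 1.75% is not the match rate of the domain's own sequence. With 1 group, values are given with no test. Alternatives were other lists, each replicate alone, other windows, distances and motif thresholds.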

Additional observations from a re-analysis of the deposited data

How the results depend on the processing

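Of 59 alternative values for 10 results, 46 stayed within the spread or within 1.5 times. The number of optimal-list sites in the window ran from 23 with the window narrowed by 50 kb on each side to 31 without replicate 2, and was 27 without replicate 1. The count of listed genes with a site within 1 kb, 3, became 6 at 5 kb, and was 4 to 5 with a replicate left out (4 without replicate 1, 5 without replicate 2). The share of sites with the motif, 81.5%, became 44.4% with at most 1 mismatch and 96.3% with at most 3. The share of sites near any start, 29.6%, became 55.6% at 5 kb. The median percentile, 66.9, was 65.7 in the conservative list and 59.8 among peaks with the top score, a subset of the list. The 20 weak summits found in both replicates became 13 at 50 bp and 10 when each replicate's peak needed a q-value below 0.05. The longest empty stretch, 310 kb, was 168 kb in the conservative list, 168 kb without replicate 1 and 168 kb without replicate 2, since the Kcnq1ot1 site falls inside it. Among pooled-list peaks with a q-value below 0.05 it was 164 kb. There it ran from the Kcnq1ot1 site to the weak summit of 13.2 at the start of Cdkn1c. These settings for the stretch were chosen after seeing the data. The SD of replicate ratios stayed at 0.30 with the nearest summit in place of the strongest peak. No paired analysis was possible because there is only 1 group. Read depth is unknown, so the weakest summits cannot be given a counting error.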

Other observations

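Some good matches to the CTCF core in the domain had no called peak. With at most 1 mismatch there were 27 matches in the window, and 12 of them lay within 50 bp of an optimal-list summit (44.4%, against 31.2% of the 66933 such matches over all placed chromosomes). With any pooled-list summit the count was 14 (51.9%, against 43.0%). Full matches are included, and they were 7 of the 27 in the window but 6945 of the 66933 over the genome. The shares thus come from sets unlike in make-up, and none was computed for matches with exactly 1 mismatch. The empty stretch held 4 of these matches, each with 1 mismatch and all in the body of Kcnq1. Of the 4, 0 had a pooled-list summit within 50 bp. They are given with capitals at the core.
Kcnq1 and Kcnq1ot1, chr7:143253797-143253826, plus strand: agcaagtcTCAGCAGAGGGCAGtgggcaac
Kcnq1, chr7:143318962-143318991, minus strand: tctttcctTCAGCAGGGGGCAGtttttgac
Kcnq1, chr7:143373596-143373625, plus strand: taccaggtCCAGCAGAGGGCTGgatgtata
Kcnq1, chr7:143414408-143414437, plus strand: tgtgaggaCCAGCACAGGGCACctgatggg
The nearest pooled-list summits lay 31.9, 11.4, 3.45 and 2.23 kb away. The stretch contained 0 full matches, and the rest of the window 7, of which 6 lay under optimal-list summits and the seventh under the weak summit in Tspan32os. Over the genome 77.2% of 6945 full matches lay under an optimal-list summit.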
